A study of Mus musculus with 47 samples.

Results

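This report describes 10 genes of iron uptake, storage and export in mice that had inhaled stainless steel welding fume: *Trf*, *Tfrc*, *Slc11a2*, *Steap4*, *Fth1*, *Ftl1*, *Slc40a1*, *Cp*, *Slc11a1* and *Ireb2*. They were chosen by name for their role, with earlier results of these data known. All 10 are among the 18138 entries of the Illumina mouse beadchips used. Male C57BL/6J mice, 6 weeks of age per the study's methods, breathed either gas metal arc-stainless steel (GMA-SS) fume at 40 mg/m3 or air, 3 hr a day on 10 days, and lung, whole blood and aorta were taken 4 hr or 28 d after the last exposure. Iron is among the chief metals of this fume, beside chromium and others. Each tissue has GMA-SS and air groups at both times, so that 47 arrays make 12 groups of 4, with 3 arrays for aorta 4 hr after GMA-SS. By the mouse numbers in the labels, blood and aorta came from the same animals and lung from others.

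Iron travels in plasma bound to transferrin, enters cells through the transferrin receptor, leaves the endosome through the divalent metal transporter, is stored in ferritin shells and leaves the cell through ferroportin, helped by copper ferroxidases that oxidise it for transferrin. Iron regulatory proteins bind hairpins in the mRNAs of ferritin, ferroportin and the transferrin receptor when iron is scarce, and thereby slow the translation of ferritin and ferroportin and stabilise the receptor mRNA. In the lung, macrophages take up and hold much of the iron of inhaled particles. The arrays measured mRNA, so a change in ferritin or ferroportin translation was outside what they could show.

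Signals were corrected for background, put on a log2 scale and quantile-normalized within each tissue, and this normalized log2 signal is the level given below. A fold change is GMA-SS over air, and an adjusted p is that of limma with Benjamini-Hochberg adjustment over all genes tested in that tissue. A gene was called when its adjusted p was under 0.05. Per array, 10239 to 10872 entries exceeded background in lung, 8090 to 8406 did so in blood, and 8678 to 9646 did so in aorta. Each beadchip held 1 tissue at 1 time, so a difference in effect between the times cannot be told apart from one between beadchips. On each, GMA-SS arrays were in the last positions and air arrays in the first, so position and exposure cannot be told apart. The labelled tissues carried their defining transcripts, *Sftpc* of type II cells in 16 of 16 lung arrays, *Alas2* of erythroid cells in 16 of 16 blood arrays and *Myh11* of smooth muscle in 15 of 15 aorta arrays, while the smooth muscle gene *Cnn1* was above background in 8 of 15 aorta arrays. *Sftpc* was above background in 1 of 16 blood and 1 of 15 aorta arrays. *Alas2* was also above background in 16 of 16 lung and 15 of 15 aorta arrays, and *Myh11* in 16 of 16 lung arrays. Detection of *Alas2* or *Myh11* by itself thus does not tell these tissues apart. Transcripts of neighbouring tissue were present too, with the heart muscle gene *Myh6* above background in 16 of 16 lung arrays and in 15 of 15 aorta arrays.

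In lung, 9 of the 10 genes passed the filter on dim entries, *Steap4* only through 3 GMA-SS arrays. At 4 hr *Trf* and *Cp* rose and *Tfrc* fell. The 2 of 9 that rose stand beside 9.53% of the 11133 genes tested that rose, and the 1 of 9 that fell beside 9.81% that fell. At 28 d *Slc11a1*, *Cp*, *Slc11a2* and *Trf* rose and none of the 9 fell, beside 7.65% of all genes that rose and 8.71% that fell. The median log2 fold change of the 9 was 0.13 at 4 hr and 0.19 at 28 d, beside -0.03 and -0.04 over all genes tested. Values of the 2 exposures did not overlap for 2 genes that were higher and 1 that was lower at 4 hr, beside 12% and 14.5% of all genes, and for 4 higher and 0 lower at 28 d, beside 6.93% and 8.79%. At an unadjusted p under 0.05 the count was 4 of 9 at each time, beside 32.1% and 29.4% of all genes. At the thresholds of the study, an unadjusted p under 0.05 with a fold of at least 1.3, it was 3 of 9 at 4 hr and 2 of 9 at 28 d, beside 12.8% and 11.4%, since the folds of *Trf* and *Slc11a2* at 28 d were 1.22 and 1.29.

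*Trf* encodes transferrin, the plasma iron carrier, which is made mostly in liver. It gave the largest fold of the 10 genes in any comparison. At 4 hr its log2 signal was 14.56, 14.32, 14.62 and 14.66 in the GMA-SS lungs, against 13.27, 13.39, 13.30 and 13.59 in the air lungs. All 4 GMA-SS arrays lay above every air array, by at least the whole spread of the air group. The fold was 2.22 (log2 fold change 1.15, SE 0.07, adjusted p = 2.1e-08), which put *Trf* at rank 10 by p among the 11133 genes tested. At 28 d *Trf* read 13.55, 13.59, 13.64 and 13.70 in the GMA-SS lungs, against 13.38, 13.30, 13.35 and 13.30 in the air lungs. The groups were again apart, by a smaller step, with a fold of 1.22 (log2 fold change 0.29, SE 0.07, adjusted p = 0.015). The difference between the 2 effects, 28 d minus 4 hr, was -0.87 on the log2 scale (SE 0.11, adjusted p = 4.1e-04). *Trf* was the only one of the 9 for which this difference was called, beside 0.593% of all genes.

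**Figure D1:**
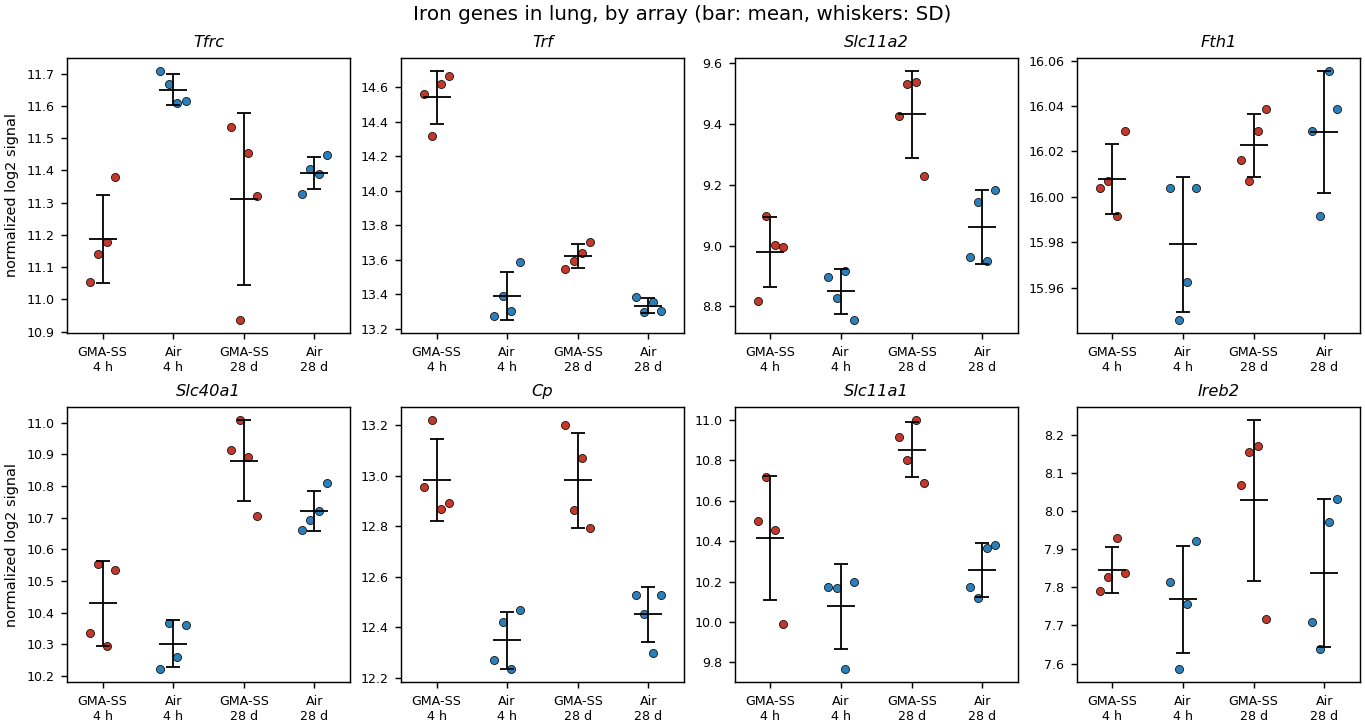
Normalized log2 signal of 8 iron genes in each lung array, with GMA-SS in red and air in blue at 4 hr and 28 d (points: arrays; bar: mean; whiskers: SD; n = 4 per group; each panel has its own axis). *Trf* at 4 hr reads 14.32 to 14.66 in the GMA-SS lungs and 13.27 to 13.59 in the air lungs, while *Fth1* stays within 15.95 to 16.06 on every array.

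*Tfrc* encodes the transferrin receptor, which takes up iron-laden transferrin. At 4 hr it read 11.05, 11.14, 11.18 and 11.38 in the GMA-SS lungs, against 11.71, 11.67, 11.61 and 11.61 in the air lungs. Every GMA-SS array was below every air array, and the log2 fold change was -0.46 (SE 0.10, adjusted p = 0.0034), or 1.38-fold lower. The 28 d lungs gave 11.53, 10.93, 11.45 and 11.32 in the GMA-SS lungs, against 11.33, 11.40, 11.39 and 11.45 in the air lungs. One GMA-SS array, replicate 2, lay below the rest and the others spanned the air values, and the log2 fold change of -0.08 (SE 0.10, adjusted p = 0.64) was not called. The difference between the 2 times was 0.38 (SE 0.14, adjusted p = 0.44), and without GMA-SS replicate 2 of 28 d it was 0.51 and called (adjusted p = 0.032). In no other of the 24 alternative fits was this difference called. So the receptor and its ligand moved in opposite directions at 4 hr, in arrays where neither overlapped with air.

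The start region of *Tfrc* is shown because it is the one gene of the set that fell. RefSeq (GRCm38.p6) gives 2 start sites for it on the plus strand, and the 250 bases before the first, at chr16:32608646-32608895, are printed below with the letters of a metal response element (TGCGCNC or TGCACNC, on both strands) in capitals. The 30 bases at chr16:32608872-32608901, which overlap the end of that stretch, hold ACGTG, the core of a hypoxia response element, in capitals.
Tfrc, before the first start: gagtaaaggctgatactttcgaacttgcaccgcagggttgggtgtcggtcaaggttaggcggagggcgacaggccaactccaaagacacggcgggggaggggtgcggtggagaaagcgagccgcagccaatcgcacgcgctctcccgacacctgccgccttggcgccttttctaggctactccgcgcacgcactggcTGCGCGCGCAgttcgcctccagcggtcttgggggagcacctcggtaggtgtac
Tfrc, around ACGTG: gggggagcacctcggtaggtgtACGTGcgg
The capitals of the first stretch are 2 matches on opposite strands that overlap each other. The metal response letters occur in the 250 bases before 21.4% of the 32851 starts in the RefSeq table, and ACGTG in 16.6%. Windows were at hand for 7 of the 10 genes, namely *Tfrc*, *Steap4*, *Fth1*, *Ftl1*, *Cp*, *Slc11a1* and *Ireb2*. Further motifs searched on both strands were the antioxidant response element TGACNNNGC (10.2% of all starts), the gamma-activated sequence TTCNNNGAA (7.02%) and the interferon-stimulated response element, read as GAAA, any 2 bases and GAAA (2.98%). Besides those of *Tfrc*, the 10 windows of the 7 genes held 1 match, TTCNNNGAA before *Steap4*. A match is a string of letters and not a bound site.

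*Slc11a2* encodes the divalent metal transporter DMT1, which carries ferrous iron out of the endosome. Its log2 signal at 28 d was 9.43, 9.53, 9.54 and 9.23 in the GMA-SS lungs, against 8.96, 9.14, 8.95 and 9.18 in the air lungs. The lowest GMA-SS array was just above the highest air array, and the log2 fold change was 0.37 (SE 0.09, adjusted p = 0.0076). With the normalized values that the authors deposited it was 0.19 (adjusted p = 0.0057). At 4 hr it read 8.82, 9.10, 9.003 and 8.997 in the GMA-SS lungs and 8.90, 8.83, 8.92 and 8.75 in the air lungs. One GMA-SS array lay among the air arrays, and the log2 fold change of 0.13 (SE 0.09, adjusted p = 0.33) was not called. The remaining uptake gene, *Steap4*, an endosomal ferrireductase, was above background in 3 of 16 lung arrays, 1 GMA-SS array at 4 hr, 2 GMA-SS arrays at 28 d and 0 air arrays, so its values lie at the edge of detection. It had log2 fold changes of -0.07 at 4 hr and 0.13 at 28 d and adjusted p-values of 0.67 and 0.39.

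The ferritin genes gave little to compare. *Fth1*, the heavy chain with ferroxidase activity, ranked 3 to 15 among the 18138 entries of a lung array, at 93.2% to 98.7% of the brightest entry, where the scale leaves little room above it. Its log2 signal was 16.004, 16.007, 15.992 and 16.029 in the GMA-SS lungs at 4 hr, against 16.004, 15.946, 15.963 and 16.004 in the air lungs. The groups overlapped, with a log2 fold change of 0.03 and a 95% interval of -0.05 to 0.10 at 4 hr, and at 28 d of -0.01 with an interval of -0.08 to 0.07. *Ftl1*, the light chain, was not above background on any of the 16 lung arrays and was not tested there. Ferritin light chain is known as an abundant transcript in most tissues, and the array has a single entry for it whose probe sequence was not used here, so its low signal is not a measure of absent mRNA. Both genes have near-identical copies elsewhere in the mouse genome, with which a probe may share signal.

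On the export side, *Cp* encodes ceruloplasmin, the copper ferroxidase that oxidises exported iron, and *Slc40a1* encodes the exporter ferroportin. *Cp* read 12.96, 13.22, 12.87 and 12.89 in the GMA-SS lungs at 4 hr, against 12.27, 12.42, 12.23 and 12.47 in the air lungs. Likewise at 28 d it read 13.20, 12.86, 13.07 and 12.79 in the GMA-SS lungs, against 12.53, 12.46, 12.30 and 12.53 in the air lungs. At both times every GMA-SS array stood above every air array. At 4 hr the fold was 1.55 (log2 fold change 0.64, SE 0.09, adjusted p = 1.6e-04). It was 1.44 at 28 d (log2 fold change 0.53, SE 0.09, adjusted p = 0.0012). The difference between the times was -0.11 (SE 0.13, adjusted p = 0.97), with a 95% interval of -0.39 to 0.18.

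*Slc40a1* read 10.34, 10.55, 10.29 and 10.53 in the GMA-SS lungs at 4 hr, against 10.22, 10.37, 10.26 and 10.36 in the air lungs. The 28 d values were 10.91, 11.01, 10.89 and 10.71 in the GMA-SS lungs, against 10.66, 10.69, 10.72 and 10.81 in the air lungs. The exposures overlapped at both times. The log2 fold change was 0.13 at 4 hr (SE 0.08, adjusted p = 0.26) and 0.16 at 28 d (SE 0.08, adjusted p = 0.17). Without GMA-SS replicate 4, the lowest of its group at 28 d, the effect at that time was 0.22, called with an adjusted p of 0.049. That was the only 1 of 25 alternative fits in which it was called.

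*Slc11a1* encodes NRAMP1, the metal transporter of the phagosome membrane of macrophages. Function of the protein in this mouse strain was not measured, and the values below are no measure of metal transport in these mice. Its entry sums several probes. At 28 d it read 10.92, 10.80, 11 and 10.69 in the GMA-SS lungs, against 10.17, 10.12, 10.37 and 10.38 in the air lungs. The groups were apart, with a fold of 1.51 (log2 fold change 0.59, SE 0.13, adjusted p = 0.0056). At 4 hr it read 10.498, 10.71, 10.45 and 9.99 in the GMA-SS lungs, against 10.17, 10.17, 9.77 and 10.20 in the air lungs. GMA-SS replicate 4 lay within the air range, and the log2 fold change of 0.34 (SE 0.13, adjusted p = 0.085) was not called. Without that array it was 0.48 and called (adjusted p = 0.0074), the only 1 of 25 alternative fits in which it was called. The difference between the times, 0.26 (SE 0.19, adjusted p = 0.91), was not called.

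*Ireb2* encodes iron regulatory protein 2, which is controlled mainly by degradation of the protein. At 4 hr it read 7.79, 7.83, 7.93 and 7.84 in the GMA-SS lungs, against 7.81, 7.58, 7.75 and 7.92 in the air lungs. The 28 d values were 8.07, 8.15, 8.17 and 7.72 in the GMA-SS lungs, against 7.71, 7.64, 7.97 and 8.03 in the air lungs. The groups overlapped at both times, with log2 fold changes of 0.08 (SE 0.11, adjusted p = 0.69) and 0.19 (SE 0.11, adjusted p = 0.29).

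**Figure D2:**
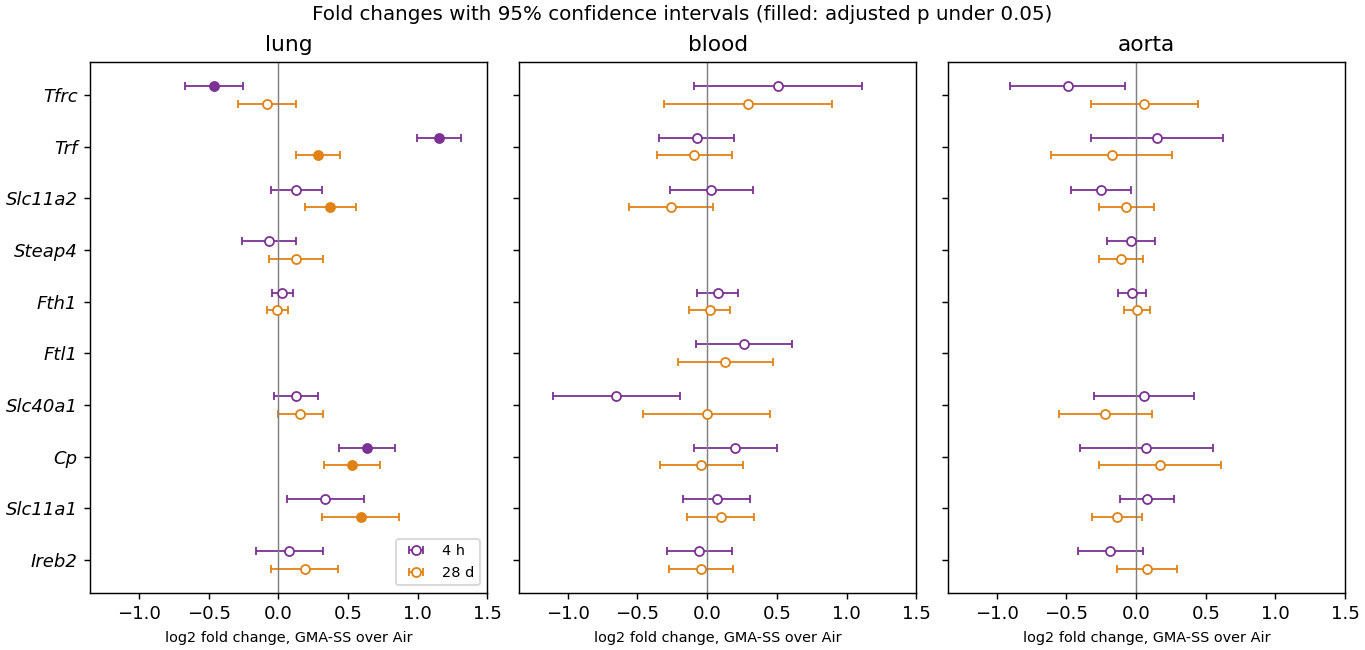
Log2 fold change, GMA-SS over air, with its 95% confidence interval for each gene tested in lung, blood and aorta at 4 hr (purple) and 28 d (orange). Filled points have an adjusted p under 0.05; they are found in the lung panel alone, and a gene without points did not pass the filter in that tissue.

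Cell type markers moved with exposure in the same lung arrays. The counts below stand beside 9.53% of all genes that rose and 9.81% that fell at 4 hr, and 7.65% and 8.71% at 28 d. Of 9 macrophage and monocyte markers measured, 7 rose and 0 fell at 4 hr, and 7 rose and 0 fell at 28 d; *Cd68* had log2 fold changes of 1.35 and 1.48 and *C1qb* of 1.49 and 1.66. The summed log2 signal of that list ran from 16.28 to 16.36 in the GMA-SS lungs and from 15.96 to 16.13 in the air lungs at 4 hr, and from 16.33 to 16.52 and 16.12 to 16.22 at 28 d. Of 6 T cell markers, 5 rose at each time and none fell. Of 7 alveolar macrophage markers, 4 fell and 1 rose at 4 hr, and 3 fell and 2 rose at 28 d, with *Krt79* at -2.58 and -1.97. Other lists fell. Of 4 smooth muscle markers, 3 fell at 4 hr and 4 at 28 d, with sums of 13.50 to 13.76 in the GMA-SS lungs and 14.00 to 14.05 in the air lungs at 4 hr. Of 5 airway secretory markers, 3 fell at 4 hr (*Bpifa1* by 2.01 on the log2 scale), and 1 rose and 1 fell at 28 d. Of 5 adipocyte markers, 3 fell at 4 hr, with sums of 13.96 to 14.51 in the GMA-SS lungs and 14.81 to 15.39 in the air lungs, and none was called at 28 d. In whole lung, a change in the number of cells of a type and one in RNA per cell cannot be told apart, and the part of these cells in the values of *Trf*, *Cp*, *Tfrc*, *Slc11a1* and *Slc11a2* was not tested.

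Genes most like each called gene over the 16 lung arrays were found by Pearson correlation of the log2 signal, as a description. Both exposures and both times were pooled, so genes that share a response to the fume can correlate through it alone. Arrays of one time share a beadchip. *Cp* was closest to *Phf11a*, *Oas2* and *Mx2* (r = 0.97 each), of which *Oas2* and *Mx2* are interferon-induced antiviral genes. *Slc11a1* was closest to *Cx3cr1* (r = 0.93), the fractalkine receptor of monocytes, *Nfkbid* (r = 0.92) and *Crybg1* (r = 0.92). *Trf* was closest to *Reg1* (r = 0.97), *Ckmt1* (r = 0.95) and *Gapdh* (r = 0.95). *Slc11a2* was closest to *LOC100044702* (r = 0.96), *Ctsc* (r = 0.94), a lysosomal protease, and *Plcl2* (r = 0.93). *Tfrc* had the loosest neighbours, *Sult2b1* (r = 0.84), *Flywch2* (r = 0.81) and *Cep112* (r = 0.79).

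Beyond the 10 genes, 66 other genes of iron and haem handling were listed, of which 47 were tested in lung. At 4 hr 6 rose and 8 fell, and at 28 d 7 rose and 5 fell, beside the same 9.53% and 9.81%, and 7.65% and 8.71%, of all genes. Their median log2 fold change was -0.03 at each time. In all 20 genes were called at either time and 6 at both. At 28 d the 12 calls became 4 without GMA-SS replicate 3, 6 without GMA-SS replicate 1, 7 without air replicate 3 and 7 when the 28 d arrays were fitted alone.

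Among genes of siderophore binding, *Lcn2*, which encodes lipocalin 2, a protein that sequesters iron-loaded bacterial siderophores, averaged 15.6 ± 0.22 in the GMA-SS lungs and 12.9 ± 0.16 in the air lungs at 4 hr (SD, n = 4 each). Its GMA-SS values reached 15.93, near the level of *Fth1*, where the scale leaves little room above. Its log2 fold change was 2.69 (SE 0.13, adjusted p = 8.7e-10) at 4 hr and 2.95 (SE 0.13, adjusted p = 1.9e-10) at 28 d. *Ltf*, encoding lactoferrin, an iron-binding protein of secretions and neutrophil granules, rose at 28 d (0.64, adjusted p = 0.023). The lipocalin receptor gene *Slc22a17* fell at 4 hr (-0.33, adjusted p = 0.0032). Of 10 neutrophil markers listed 4 were measured, of which 0 rose at either time and *S100a9* fell at 4 hr (-0.77, adjusted p = 0.043). Their median log2 fold change was -0.29 at 4 hr and 0.22 at 28 d. At 28 d their summed log2 signal ran from 12.77 to 13.98 in the GMA-SS lungs and from 12.77 to 13.53 in the air lungs. The paper cites lavage counts of an earlier study of this exposure, where neutrophils were raised and rose further by 28 d. The part of neutrophils in the *Lcn2* and *Ltf* values was not tested.

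Among genes of haem breakdown and scavenging, *Hmox1*, which encodes the inducible haem oxygenase that frees iron from haem, rose by 1.02 (SE 0.10, adjusted p = 2.2e-06) at 4 hr and by 0.92 (SE 0.10, adjusted p = 1.2e-05) at 28 d on the log2 scale. *Hpx*, encoding the haem-binding plasma protein hemopexin, rose at 28 d (0.89, SE 0.12, adjusted p = 1.3e-04) with a value of 0.10 at 4 hr (adjusted p = 0.61). *Blvrb*, a biliverdin reductase gene, rose at 4 hr (0.23, adjusted p = 0.028), and *Flvcr2* fell at both times (-0.34 and -0.30, adjusted p = 0.0031 and 0.0086). Of 7 genes of haem synthesis 3 fell at 4 hr, beside 9.81% of all genes, and none was called at 28 d. The 3 were *Alas2* (-0.72, adjusted p = 0.0048), *Alas1* (-0.24, adjusted p = 0.011) and *Ppox* (-0.20, adjusted p = 0.022). *Alas2* is the erythroid enzyme, and the erythroid marker *Slc4a1* fell in the same arrays (-0.69, adjusted p = 0.012), 1 of 4 erythroid markers measured; its part in the *Alas2* value was not tested.

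Of 6 genes of import and iron reduction, 2 rose and none fell at each time, beside 9.53% of all genes that rose at 4 hr and 7.65% at 28 d. *Steap2*, an endosomal ferrireductase, rose at 4 hr (0.81, SE 0.09, adjusted p = 5.9e-06) and at 28 d (0.28, SE 0.09, adjusted p = 0.036), and *Slc39a8*, the metal importer ZIP8, rose at 28 d (0.44, adjusted p = 0.021). *Ncoa4*, the receptor that delivers ferritin to lysosomes, rose at 28 d (0.44, adjusted p = 0.030), and *Aco1*, which encodes iron regulatory protein 1, rose at 4 hr (0.27, adjusted p = 0.025). Of 9 genes of mitochondrial iron and iron-sulfur clusters 2 fell at 28 d, beside 8.71% of all genes. They were *Cisd1* (-0.30, adjusted p = 0.031) and *Iscu* (-0.16, adjusted p = 0.036), and none of the 9 was called at 4 hr.

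Of 7 genes of the hepcidin axis, 3 fell at 4 hr and 2 at 28 d, beside 9.81% and 8.71% of all genes. *Hamp*, which encodes the hormone hepcidin that removes ferroportin from membranes, fell at 4 hr (-0.89, SE 0.23, adjusted p = 0.010) and at 28 d (-0.71, SE 0.23, adjusted p = 0.040), and the values of the 2 exposures overlapped at both times. *Bmp6*, encoding the ligand that induces hepcidin in liver, fell by 0.62 (adjusted p = 0.0035) and by 0.45 (adjusted p = 0.032). Heart muscle expresses *Hamp*. The heart muscle gene *Myh6* fell in these lungs at 4 hr (-0.64, adjusted p = 0.043), 1 of 4 such markers measured, and the summed log2 signal of the 4 ran from 11.97 to 13.07 in the GMA-SS lungs and from 12.87 to 13.35 in the air lungs. At 28 d *Myh6* was at -0.57 (adjusted p = 0.079), with sums of 11.48 to 13.04 in the GMA-SS lungs and 12.24 to 12.89 in the air lungs. Its part in the *Hamp* value was not tested.

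**Figure D3:**
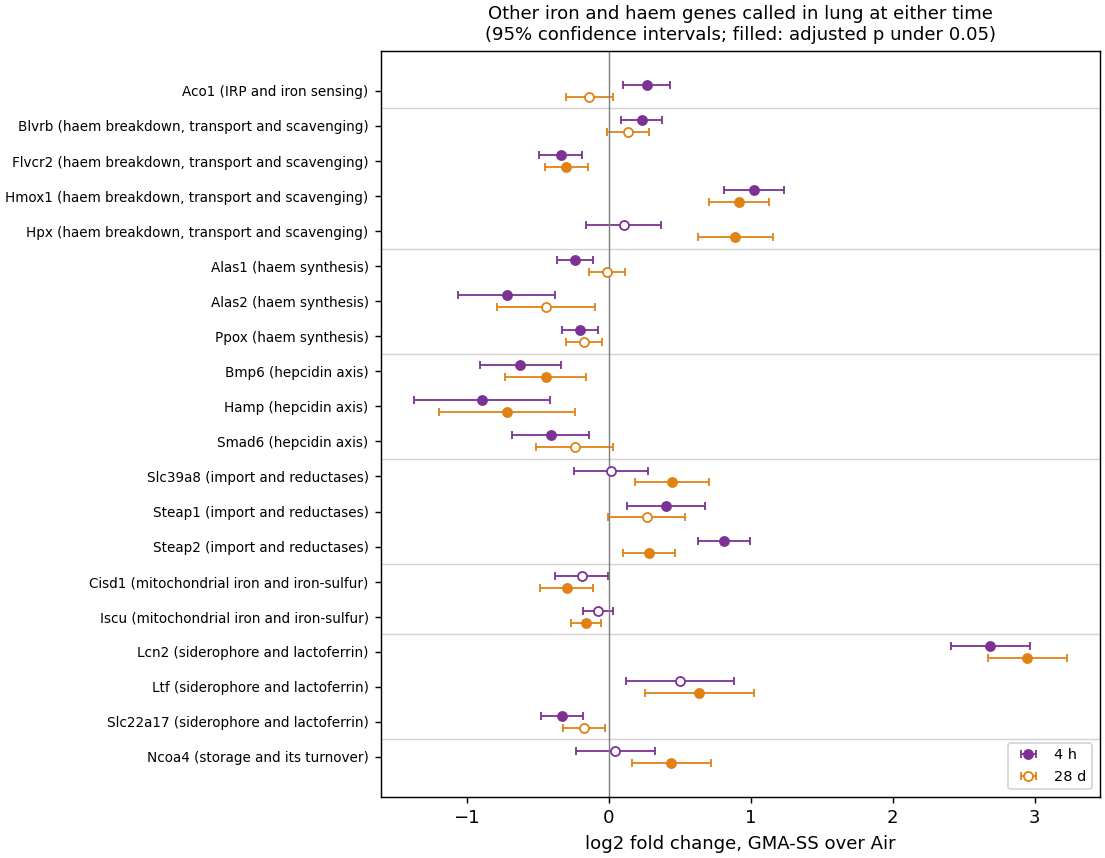
Log2 fold change in lung, GMA-SS over air, with its 95% confidence interval, for the 20 other iron and haem genes called at 4 hr (purple) or 28 d (orange), grouped by role; filled points have an adjusted p under 0.05. *Lcn2* stands furthest from 0, at 2.69 and 2.95, and *Hmox1* follows at 1.02 and 0.92.

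In blood none of the 9 iron genes tested was called at either time, beside 0.0108% of the 9259 genes at 4 hr and 0% at 28 d. At an unadjusted p under 0.05 the counts were 1 of 9 and 0 of 9, beside 5.03% and 7.77% of all genes, and the thresholds of the study, with a fold of 1.1 in blood and aorta, gave the same counts and percentages. Values of the exposures overlapped for all 9 genes at both times, while 1.79% of all genes were higher and 1.35% lower without overlap at 4 hr, and 1.37% and 1.58% at 28 d. The tested genes included *Ftl1*, which was above background in 16 of 16 blood arrays, and left out *Steap4*, in 0 of 16. *Slc40a1*, which red cell precursors and macrophages use to release iron, was the 1 gene. It read 9.88, 9.29, 9.34 and 9.47 in the GMA-SS blood at 4 hr, against 9.76, 10.23, 10.19 and 10.41 in the air blood. Replicate 1 of GMA-SS lay just above the lowest air array and the other 3 lay below all of them, and the log2 fold change was -0.65 (SE 0.22, adjusted p = 0.86). At 28 d it read 10.39, 10.42, 11.14 and 10.32 in the GMA-SS blood and 10.13, 10.24, 11.18 and 10.73 in the air blood, with a log2 fold change of -0.0043 (SE 0.22, adjusted p = 1.00).

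*Tfrc*, abundant in immature red cells, had the largest SE of the 9 genes in blood. It read 8.91, 8.46, 9.87 and 9.49 in the GMA-SS blood at 4 hr, against 8.30, 8.64, 9.36 and 8.40 in the air blood. The groups overlapped, with a log2 fold change of 0.51 (SE 0.29, adjusted p = 1.00) and a 95% interval of -0.09 to 1.11. At 28 d it read 9.16, 9.16, 9.08 and 9.02 in the GMA-SS blood and 9.61, 8.51, 8.32 and 8.81 in the air blood, with a log2 fold change of 0.29 (SE 0.29, adjusted p = 0.84). The other 7 genes had log2 fold changes between -0.08 and 0.26 at 4 hr and between -0.26 and 0.13 at 28 d. Of them *Fth1*, at 66.0% to 79.4% of the brightest entry, had 95% intervals of -0.07 to 0.22 and -0.13 to 0.16, and *Cp* was above background in 6 of 16 arrays. None of the 7 erythroid or 6 neutrophil markers measured in blood was called at either time. The summed log2 signal of the neutrophil list at 4 hr was 14.89, 13.77, 14.02 and 14.02 in the GMA-SS blood and 14.15, 14.68, 14.35 and 14.78 in the air blood, so that GMA-SS replicates 2 to 4 lay below all air arrays and replicate 1 did not, as for *Slc40a1*. That of 3 endothelial markers ran from 13.44 to 13.88 in the GMA-SS blood and from 13.93 to 14.18 in the air blood at 4 hr. None of these 3 markers was called, and their median log2 fold change was 0.05, in the other direction from the sum. The part of neutrophils or other cells in the *Slc40a1* value was not tested.

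In aorta 1 array stood apart before any comparison. GMA-SS replicate 2 of 28 d had a summed log2 signal of airway secretory markers of 15.97, against 8.65 to 8.93 in the other 3 arrays of its group and 8.98 to 9.95 in the air aortas of 28 d. Its summed log2 signal of alveolar type I markers was 9.23, against 4.92 to 5.29 in its group and 5.07 to 5.80 in air. That of heart muscle markers was 13.99, against 10.43 to 11.02 in the other 3 arrays of its group and 11.94 to 13.73 in the air aortas of 28 d, so that those 3 lay below every air aorta of that time. The same array had the highest *Cp* of all aorta arrays. The adipocyte gene *Adipoq* was above background in 15 of 15 aorta arrays. Its median log2 signal there was 13.45, beside 11.52 for the smooth muscle gene *Myh11*, on different probes. The aorta samples thus held fat as well as vessel wall, and the part of surrounding tissue in the values below was not tested.

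None of the 9 iron genes tested in aorta was called at either time, beside 0% of 9850 genes at 4 hr and at 28 d. At an unadjusted p under 0.05 the counts were 2 of 9 and 0 of 9, beside 3.88% and 6.83% of all genes, and at the thresholds of the study they were again 2 and 0, beside 3.72% and 6.25%. These 2 were *Tfrc* and *Slc11a2* at 4 hr. *Tfrc* read 9.04, 8.93 and 8.96 in the GMA-SS aortas, against 9.68, 9.12, 9.55 and 9.51 in the air aortas. The 3 GMA-SS arrays lay below all 4 air arrays, and the log2 fold change was -0.49 (SE 0.19, adjusted p = 1.00). *Slc11a2* read 6.997, 6.72 and 6.67 in the GMA-SS aortas, against 7.12, 7.10, 6.92 and 7.06 in the air aortas, so that 1 GMA-SS array lay among the air values, with a log2 fold change of -0.25 (SE 0.10, adjusted p = 1.00). *Ireb2*, at 6.40, 6.26 and 6.35 in the GMA-SS aortas and 6.49, 6.50, 6.63 and 6.46 in the air aortas, did not overlap either, with a log2 fold change of -0.19 (SE 0.11, adjusted p = 1.00). Thus 2 of 9 genes were lower without overlap at 4 hr, beside 5.3% of all genes, and 0 of 9 were higher, beside 3.61%. At 28 d none of the 9 was apart from air, beside 1.03% of all genes higher and 1.24% lower.

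At 28 d *Tfrc* read 8.47, 9.31, 9.31 and 9.15 in the GMA-SS aortas and 9.11, 8.96, 8.64 and 9.29 in the air aortas, with the groups overlapping and a log2 fold change of 0.06 (SE 0.18, adjusted p = 0.95). *Cp* read 8.47, 9.84, 9.01 and 8.89 in the GMA-SS aortas and 8.95, 8.73, 8.91 and 8.91 in the air aortas. Its log2 fold change was 0.17 (SE 0.21, adjusted p = 0.87), and -0.09 without replicate 2 of GMA-SS, the array with airway markers. *Slc40a1* read 10.04, 9.44, 9.35 and 9.47 in the GMA-SS aortas and 9.82, 9.80, 9.94 and 9.63 in the air aortas. Replicate 1 of GMA-SS was above all air arrays and the other 3 were below them, with a log2 fold change of -0.22 (SE 0.16, adjusted p = 0.78). *Trf* had log2 fold changes of 0.15 (SE 0.22, adjusted p = 1.00) at 4 hr and -0.18 (SE 0.20, adjusted p = 0.87) at 28 d, and -0.32 without that replicate 2. *Ftl1* was above background in 0 of 15 aorta arrays and *Steap4* in 5 of 15, of which 1 was a GMA-SS array.

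**Figure D4:**
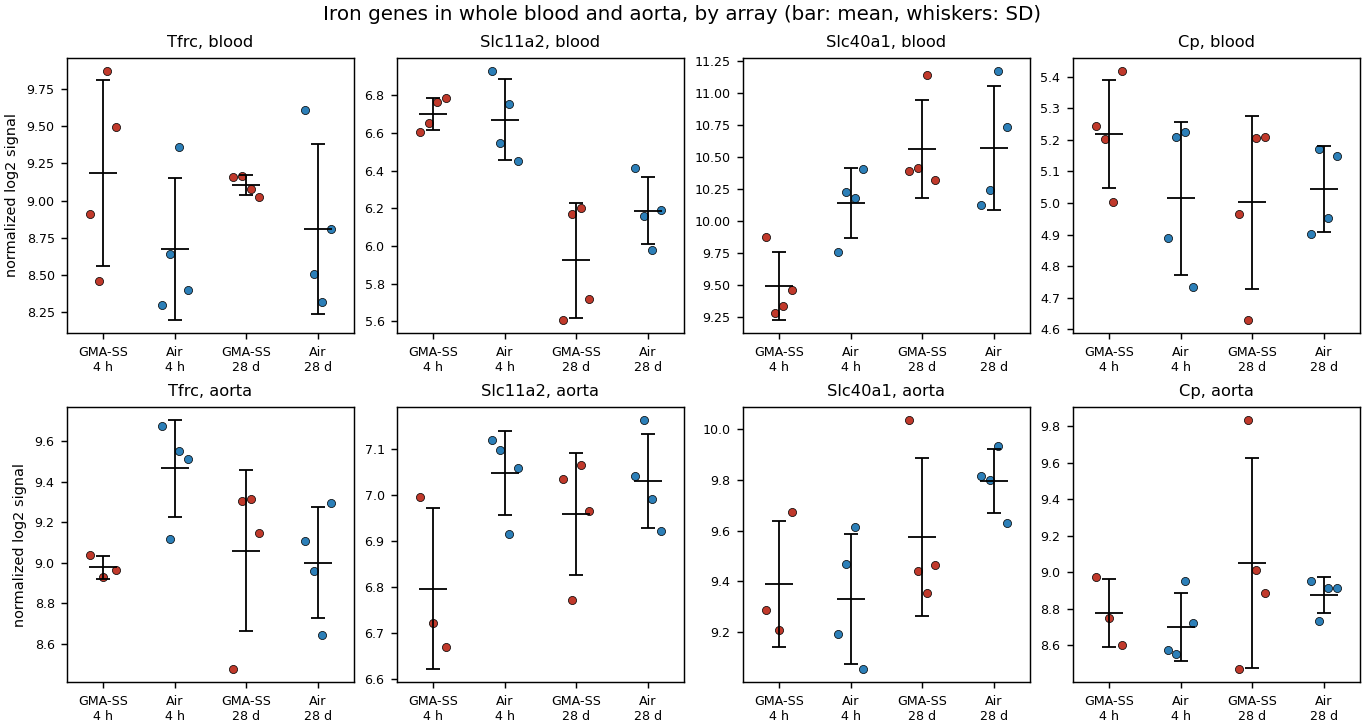
Normalized log2 signal of *Tfrc*, *Slc11a2*, *Slc40a1* and *Cp* in each blood array (top) and aorta array (bottom), with GMA-SS in red and air in blue (points: arrays; bar: mean; whiskers: SD; n = 4 per group, 3 for aorta GMA-SS at 4 hr; each panel has its own axis). *Cp* in aorta at 28 d has 1 GMA-SS array at 9.84, the one with airway markers, and blood *Slc40a1* at 4 hr has 3 of 4 GMA-SS arrays below all air arrays.

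Levels were also compared between tissues over the 24 air arrays, with all 47 arrays quantile-normalized together. Tissue and beadchip cannot be told apart here. The order of the tissue medians on this scale was the same as that of the unnormalized signals for 4 genes and differed for 6, so only the 4 are described. *Trf* was highest in lung, at 12.16 to 12.52 over 8 arrays, with 10.41 to 11.30 in aorta and 8.24 to 9.22 in blood, and no 2 tissues overlapped. *Cp* followed the same order without overlap, at 10.93 to 11.28 in lung, 9.30 to 9.67 in aorta and 5.16 to 6.14 in blood. *Ftl1* stood at 7.90 to 8.55 in blood, above 4.79 to 5.04 in lung and 4.77 to 5.03 in aorta, where its single entry was not above background, with the limit given above for that entry. *Tfrc* had medians of 10.11 in lung, 9.92 in aorta and 9.38 in blood, and the 3 tissues overlapped.

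**Figure D5:**
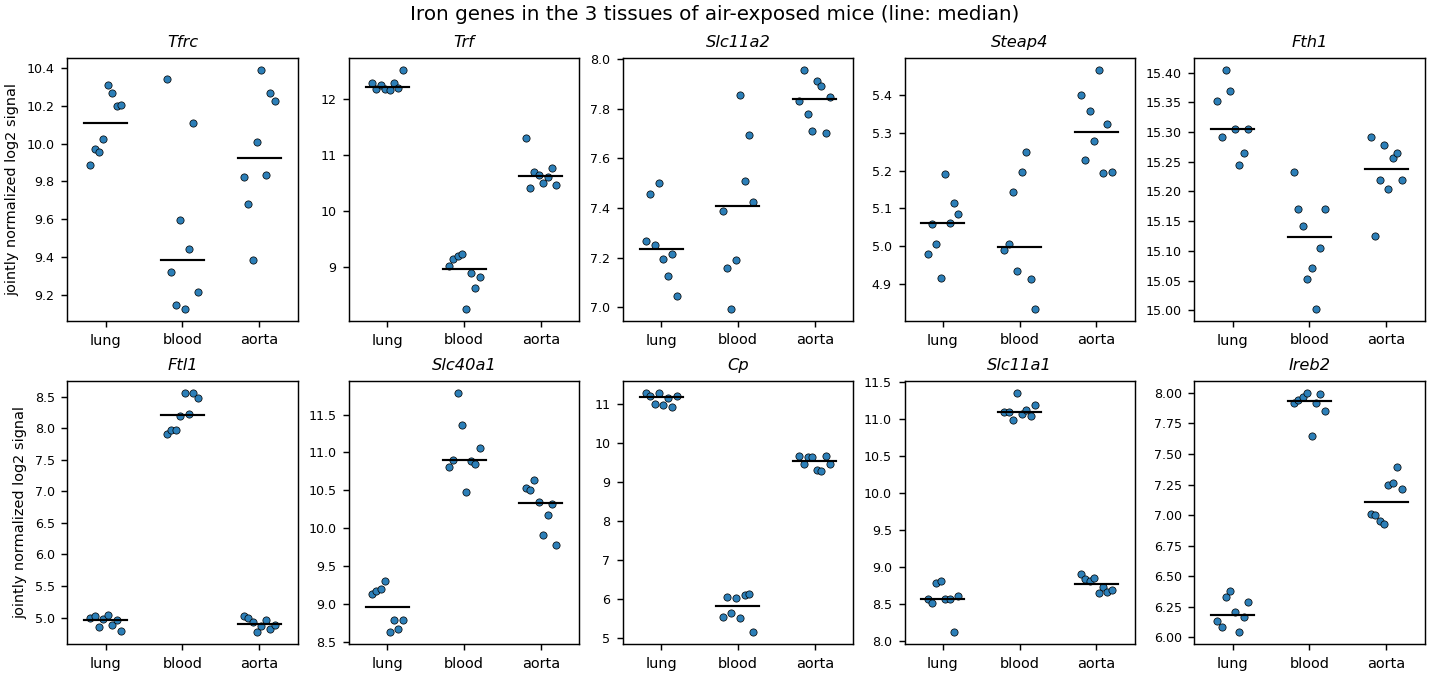
Jointly normalized log2 signal of the 10 iron genes in the air arrays of lung, blood and aorta (points: arrays, 8 per tissue; line: median; each panel has its own axis). *Trf* and *Cp* separate the 3 tissues without overlap, with lung highest, while the single *Ftl1* entry is above background in blood alone; for 6 of the genes the order of tissues changes on the unnormalized signals.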

How the data were processed

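RNA of 47 samples was bound to Illumina MouseRef-8 beadchips, 1 array per sample. The authors deposited, from BeadStudio, the average signal of each entry as an unnormalized intensity and its detection p-value, and, as sample tables, normalized log2 values made with lumi. Here, background mean and spread of each array were worked out from the detection p-values of single-probe entries, which move in steps of 1 in 798. With limma 3.58.1 in R 4.3.3, these served for a normexp correction with an offset of 16, followed by log2 and quantile normalization of each tissue by itself. The filter asked for detection p-values below 0.05 on 3 or more of a tissue's arrays, and of several entries for a gene the brightest on average stayed. A linear model with 1 mean per exposure and time was fitted per tissue with limma, the variance following the mean signal, and p-values were adjusted by Benjamini-Hochberg. The fit was also run on simulated data with independent noise for each entry and array. No beadchip or position effect was simulated, so that run does not bear on either. Of 18138 entries, 16590 were named through their Entrez number, 883 by accession, 79 by a current symbol and 586 as the file names them. Groups came from the labels, and 141 columns were used; 109 columns, with bead counts, bead errors and array counts, were not used. Alternatives were no background correction, 75th percentile scaling, no detection filter, a detection p under 0.01, the authors' normalized values, the 2 groups compared alone, every entry kept, array weights, a replicate block, the thresholds of the study and leaving out each array. The number of arrays limits the precision. By the labels each array of a group is a separate mouse.

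The 10 genes, the 66 other iron genes and the marker lists were chosen with earlier results of these data known. All 10 are named; of the other iron genes, those called in a comparison, up to 12 by lowest p, or the 3 with the lowest p where none was; and for each called gene the 3 with the highest Pearson correlation. In blood the 3 were *Uros* (0.44, adjusted p = 0.49), *Lcn2* (-0.65, adjusted p = 0.97) and *Hjv* (-0.22, adjusted p = 1.00) at 4 hr, and *Alad* (0.29, adjusted p = 0.61), *Id1* (0.32, adjusted p = 0.62) and *Hmox1* (0.40, adjusted p = 0.63) at 28 d, as log2 fold changes. In aorta they were *Hmox2* (-0.21), *Ppox* (-0.19) and *Lrp1* (0.15) at 4 hr, with adjusted p = 1.00 each, and *Cisd1* (-0.15), *Isca1* (-0.21) and *Aco1* (-0.25) at 28 d, with adjusted p = 0.71 each.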

Additional observations from a re-analysis of the deposited data

Results flagged for a closer look

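The effect on *Trf* in lung differed between the times, by -0.87 on the log2 scale (28 d minus 4 hr), in a test of the difference itself. Each time had its own beadchip. In 99 groups of 4 arrays, 4 had 1 array far from the rest by Dixon's ratio at the 95% level, and chance gives about 1 in 20. *Slc11a1* was lowest, at 9.77, in air replicate 3 of lung at 4 hr, with the others at 10.17 to 10.20. *Slc40a1* was highest, at 11.14, in GMA-SS replicate 3 of blood at 28 d, with the others at 10.32 to 10.42, and highest, at 10.04, in GMA-SS replicate 1 of aorta at 28 d, with the others at 9.35 to 9.47. *Cp* was lowest, at 8.73, in air replicate 2 of aorta at 28 d, with the others at 8.91 to 8.95.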

How the results depend on the processing

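In lung the calls of *Trf*, *Cp* and *Tfrc* at 4 hr and of *Trf*, *Cp*, *Slc11a1* and *Slc11a2* at 28 d kept direction and an adjusted p under 0.05 in all 25 alternative fits, with adjusted p-values of at most 0.045. At the thresholds of the study (unadjusted p under 0.05 with a fold of 1.3 in lung and 1.1 elsewhere) the iron genes counted were 2 in lung at 28 d, 1 in blood and 2 in aorta at 4 hr, and the other iron genes were 9 in lung at 4 hr, 2 in blood at 4 hr, 3 in blood at 28 d, 1 in aorta at 4 hr and 2 in aorta at 28 d. Other iron genes called in lung at 28 d were 7 with the 2 groups compared alone, and 4 to 13 when 1 array was left out; iron genes whose effect differed between the times in lung were 1 to 2.

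Values that changed sign were not called in the fit or in the alternative, and the cause was not tested. With 75th percentile scaling *Fth1* in lung was -0.060 at 4 hr, 0.045 at 28 d and 0.10 for the difference, *Steap4* 0.17 in lung at 4 hr, 0.011 in aorta at 4 hr and 0.015 in aorta at 28 d, and in blood at 28 d *Cp* was 0.15 and *Slc40a1* 0.022. With the authors' values *Fth1* in lung was -0.061, 0.014 and 0.075. With array weights, at 28 d, *Cp* in aorta was -0.059, *Fth1* in aorta -0.0042 and in blood -0.019, *Slc11a1* in blood -5.1e-04, *Slc40a1* in blood 0.22 and *Tfrc* in aorta -0.12. GMA-SS and air arrays share only replicate numbers. Same-numbered arrays deviated together with correlations that ran in lung from -0.04 to 0.20 (over 0.1 in 5 of 8 pairs), in blood from -0.14 to 0.17 (2 of 8) and in aorta from -0.33 to 0.49 (2 of 7), and 3, 4 and 2 GMA-SS arrays of these tissues correlated best with their own number. With the replicate number as a block the iron genes called stayed at 3 and 4 in lung, all genes called in lung were 1107 higher and 1173 lower at 4 hr (1061 and 1092 without it), and *Slc40a1* in aorta at 4 hr was -0.0026.

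With 1 array left out, values that changed sign ranged as follows. In lung *Fth1* at 28 d ran from -0.018 to 0.0027, *Tfrc* at 28 d from -0.16 to 0.044 and the difference of *Slc40a1* from -0.013 to 0.090. In blood at 4 hr *Ireb2* ran from -0.13 to 0.0093, *Slc11a2* from -0.042 to 0.12 and *Trf* from -0.22 to 0.015. In blood at 28 d *Cp* ran from -0.11 to 0.083, *Fth1* from -0.016 to 0.046, *Ireb2* from -0.11 to 0.0028, *Slc11a1* from -0.023 to 0.19 and *Slc40a1* from -0.20 to 0.20. In aorta at 4 hr *Cp* ran from -0.024 to 0.16, *Slc40a1* from -0.084 to 0.15 and *Steap4* from -0.060 to 0.0016. In aorta at 28 d *Cp* ran from -0.089 to 0.37, *Fth1* from -0.026 to 0.029, *Ireb2* from -0.0048 to 0.19, *Tfrc* from -0.058 to 0.26 and *Trf* from -0.32 to 0.019.

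Dim entries limit *Steap4*, *Ftl1* outside blood and *Cp* in blood, and the bright end of the scale limits *Fth1* and, in GMA-SS lungs, *Lcn2*.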
